A study of Macaca mulatta with 2 samples.

Results

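Cathepsins are the proteases that break down proteins inside lysosomes, and cystatin C is a secreted protein that blocks the cysteine cathepsins among them. The 10 genes described here, *CTSA*, *CTSB*, *CTSC*, *CTSD*, *CTSF*, *CTSH*, *CTSK*, *CTSL*, *CTSZ* and *CST3*, were taken by symbol from a table of 16684 genes of the macaque optic nerve. All 10 were listed in the table. No rule on their measured values was used in the choice, but earlier results of these data were known when it was made. The data were bulk RNA-seq of 2 libraries of optic nerve of *Macaca mulatta*, named Rep1 and Rep2, both wild-type and untreated, so there was 1 group and no comparison between conditions. The nerves were collected after death. A lone adult male is named as their origin in the methods, whereas the deposited description speaks of different macaques, and it cannot be told which holds. The spread between the libraries may therefore be technical, biological or both.

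The cathepsins fall into classes by the residue that cuts the substrate. *CTSB*, *CTSC*, *CTSF*, *CTSH*, *CTSK*, *CTSL* and *CTSZ* encode cysteine proteases of the papain family, *CTSD* encodes an aspartic protease and *CTSA* a serine carboxypeptidase that also shields the lysosomal enzymes β-galactosidase and neuraminidase. Most are made as inactive precursors, carried to lysosomes by mannose 6-phosphate receptors and activated in the acid that the proton pump of the lysosome maintains. In nervous tissue they are known from microglia, macrophages and other glia, *CTSK* is known from osteoclasts and fibroblasts, and cystatin C is abundant in cerebrospinal fluid.

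Values are TPM (transcript abundance per gene length, scaled so that each library sums to 1000000), as computed by the authors. TPM can therefore be set side by side between genes, within the limits of the gene lengths used, which are not given in the sources used here. The libraries differed widely in depth. From ratios of whole reads, a read of Rep1 carried the TPM of 17.2 reads of Rep2, and Rep1 listed 6425 genes at 0 against 2082 in Rep2. As markers of the labelled tissue, 8 of 8 oligodendrocyte genes were above 0 in both libraries, led by *MBP* with 43721 TPM in Rep1 and 199595 in Rep2. Rep1 stood apart in that its 10 photoreceptor markers summed to 4425 TPM, led by *GNAT1* at 2763 TPM and *NEUROD1* at 740 TPM, against a sum of 5.84 TPM in Rep2, and the values of each library are therefore given side by side. In bulk tissue, fewer cells of a type and less RNA per cell cannot be told apart.

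The sequences around the catalytic residue show how the members are related, and they are printed for that reason. They are 36 bases of the coding strand of the RefSeq transcripts for the Mmul_10 genome, 5′ to 3′, with the codon of the catalytic cysteine in capitals. This codon was found in frame by the amino acids around it.
CTSL: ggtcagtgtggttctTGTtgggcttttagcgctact
CTSK: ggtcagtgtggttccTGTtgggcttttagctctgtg
CTSF: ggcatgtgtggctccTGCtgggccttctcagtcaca
CTSH: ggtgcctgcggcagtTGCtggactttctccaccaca
CTSZ: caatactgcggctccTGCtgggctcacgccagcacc
CTSC: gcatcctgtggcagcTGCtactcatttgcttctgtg
*CTSK* shared 31 of these 36 bases with *CTSL*, *CTSB* 23, *CTSF* 22, *CTSH* 21, *CTSZ* 18 and *CTSC* 15. The capitals lie at codon 138 of the reading frame in *CTSL*, 139 in *CTSK*, 301 in *CTSF*, 141 in *CTSH*, 92 in *CTSZ* and 258 in *CTSC*.

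The other classes were found by their own patterns. In *CTSD* the capitals mark the codon of a catalytic aspartate, in *CTSA* the codon of the catalytic serine, and in *CST3* the 5 codons of the loop with which cystatins enter the cleft of a cysteine cathepsin.
CTSD: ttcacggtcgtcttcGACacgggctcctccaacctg
CTSA: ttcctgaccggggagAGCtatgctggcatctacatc
CST3: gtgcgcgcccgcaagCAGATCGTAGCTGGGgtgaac

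Cystatin C was by far the most abundant transcript of the group. *CST3*, on chromosome 10 of Mmul_10 (chr10:42869247-42873160, plus strand, 3 exons), stood at 964 TPM in Rep1 and 10288 in Rep2, or 5626 ± 6593 TPM (SD, n = 2). It held place 5 among all listed genes in Rep2, place 169 in Rep1 and place 13 on the mean. These values rested on at least 284 reads in Rep1 and 52089 in Rep2. *CST3* was the highest member in both libraries, although its level differed 10.7-fold between them.

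Among the cysteine cathepsins, *CTSB* was the highest and *CTSZ* the lowest in both libraries. *CTSB*, an abundant lysosomal endo- and exopeptidase on chromosome 8 (8711530 to 8736343, plus strand), stood at 158 TPM in Rep1 and 983 in Rep2, or 571 ± 583 TPM (SD, n = 2). *CTSK*, a collagen-degrading protease on chromosome 1 (100322705 to 100335845, plus strand), stood at 104 TPM in Rep1 and 621 in Rep2, or 363 ± 365 TPM (SD, n = 2). *CTSF*, on chromosome 14 (7979397 to 7984822, plus strand), stood at 68.3 TPM in Rep1 and 518 in Rep2, or 293 ± 318 TPM (SD, n = 2). All 3 were lower in Rep1, and none of the 3 overlapped another annotated gene.

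The remaining papain-like members were lower. *CTSL*, an endopeptidase on chromosome 15 (102850036 to 102855789, plus strand), stood at 47.3 TPM in Rep1 and 357 in Rep2, or 202 ± 219 TPM (SD, n = 2). *CTSC*, a dipeptidyl peptidase that activates serine proteases of immune cells, lies on chromosome 14 (81409096 to 81449251, minus strand) and stood at 56.6 TPM in Rep1 and 207 in Rep2, or 132 ± 106 TPM (SD, n = 2). *CTSH*, an aminopeptidase on chromosome 7 (56223347 to 56244555, minus strand), stood at 20.6 TPM in Rep1, which rested on at least 5 reads, and at 90.2 TPM in Rep2, on at least 376. Its mean was 55.4 ± 49.2 TPM (SD, n = 2). *CTSL* and *CTSC* changed places between the libraries, with *CTSC* higher in Rep1 and *CTSL* in Rep2.

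*CTSZ*, a carboxypeptidase of the same family on chromosome 10 (94157566 to 94169383, minus strand), was listed at 0 in Rep1 and reached 10.9 TPM in Rep2. Of the 200 genes nearest to it in Rep2, between 10.5 and 11.3 TPM, 21.5% were also listed at 0 in Rep1. *CTSZ* was thus not detected in Rep1, which does not show that it was missing, and the part of depth in this was not tested. It was the only member below the middle of the table, at percentile 40.4 of the 14693 genes with any TPM in either library, whereas the other 9 members stood between percentiles 81.4 and 99.9.

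*CTSD*, the aspartic protease of the lysosome, stood at 100 TPM in Rep1 and 497 in Rep2, or 299 ± 281 TPM (SD, n = 2), on at least 47 and 4006 reads. Its level is uncertain because of its gene model. The Mmul_10 annotation places *CTSD* on chromosome 14 (1831927 to 1867517, minus strand, 1442 exonic bases) and a second piece of the same transcript on chromosome 20 (15285166 to 15296969, plus strand, 912 exonic bases). In the second piece, 910 bases overlap exons of *MYH11*, the myosin heavy chain of smooth muscle, on the opposite strand. Over the whole *CTSD* transcript, 722 of 2211 stretches of 50 bases (32.7%) are also present in *MYH11*, as the reverse complement, and all of them lie within its first 906 bases. One run from that part, bases 11 to 40, is shown as an example.
CTSD and MYH11: tgtttttctagaaactcaatgtctgcacaa
*MYH11* stood at 1.45 TPM in Rep1 and 10.8 in Rep2. Without the use of strand, reads from this part cannot be assigned to one gene, and whether the authors' counting included the second piece is not given in the sources used here.

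*CTSA* was the exception among the 10 genes. It stood at 484 TPM in Rep1 and 223 in Rep2, or 353 ± 185 TPM (SD, n = 2), on at least 297 and 2351 reads, and was 2.17-fold higher in Rep1. It was the highest cathepsin in Rep1 and the sixth in Rep2. The gene lies on chromosome 10 (81072229 to 81094649, plus strand), and its model is also unusual. Its exons overlap those of *PLTP*, a phospholipid transfer protein, on the opposite strand by 1740 bases, or 36.3% of the exonic bases of *CTSA*, and those of *NEURL2* by 1120 bases, or 23.4%.

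The overlap with *PLTP* extends to the sequence of the transcripts. Of the 3557 stretches of 50 bases in the curated *CTSA* transcript, 1598 are present in *PLTP* as the reverse complement, between bases 1857 and 3603 of 3606. One run, bases 1867 to 1896, is shown for that reason.
CTSA and PLTP: ggacggactgtaattgatggattgactgat
In the table *PLTP* was listed at 0 in Rep1 and at 0.793 TPM in Rep2, and *NEURL2* at 0 and 0.455 TPM. Without the use of strand, reads from the shared exons cannot be assigned to a single gene, so these low values are uncertain as well. The part that reads of *PLTP* or *NEURL2* have in the level of *CTSA* was not tested. Apart from *CTSA* and *CTSD*, only *CTSL* shared any such stretch with the transcript of another gene, in 12 of 1592 stretches, so that a small part of its reads could be split with those copies.

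**Figure D1:**
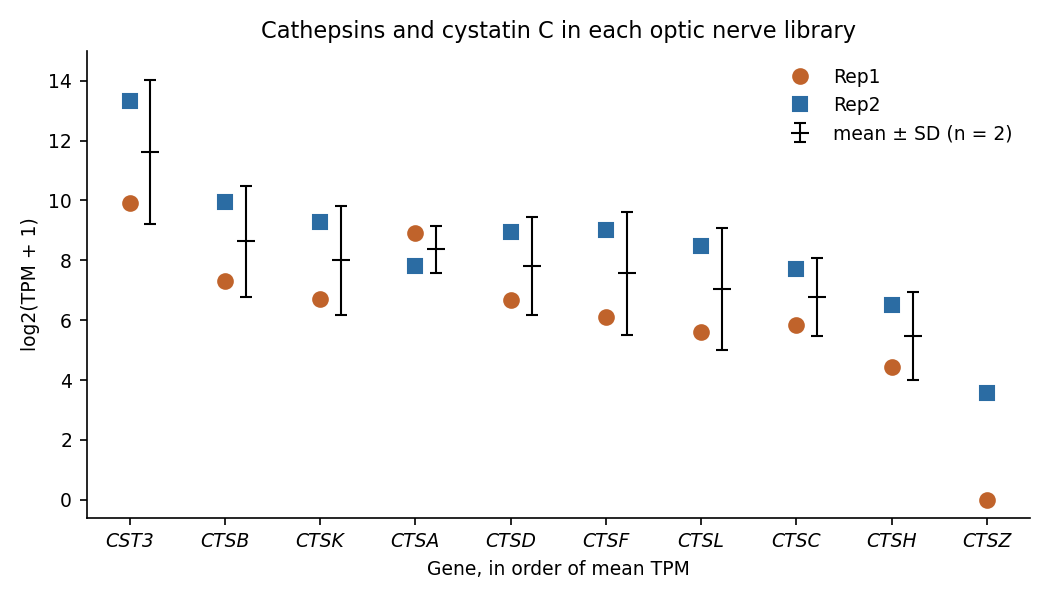
Level of each gene in Rep1 (circles) and Rep2 (squares) on the log2(TPM + 1) scale, and beside them the mean (line) and SD (bars) over both (none for *CTSZ*), in order of mean TPM. *CST3* is the highest in both libraries, *CTSA* is the only gene with Rep1 above Rep2, and *CTSZ* is at 0 in Rep1.

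The order of the members was largely shared by the libraries. Of the 45 pairs of members, 38 stood in the same order in Rep1 and Rep2, and 5 of the 7 pairs that did not were pairs with *CTSA*. Without *CTSA*, 34 of 36 pairs were in the same order. Neighbours in the order of mean log2(TPM + 1) were then set against the SD of a single library, which was taken from how far the libraries differed for 200 genes of like level. *CST3* was above *CTSB* by 2.99 on the log2 scale, 1.63 SDs, and *CTSH* above *CTSZ* by 3.68, 2.17 SDs. The other 7 neighbouring pairs, from *CTSB* down to *CTSH*, differed by 0.109 to 0.881 SDs and so were not separated beyond their spread.

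In the values as deposited, all members but *CTSA* were lower in Rep1. On the log2(TPM + 1) scale, 9 of 10 members were at least 2-fold higher in Rep2, and 1 was at least 2-fold higher in Rep1. Over all 14693 genes with any TPM in either library, 51.3% were at least 2-fold higher in Rep2 and 14.8% in Rep1. Median-of-ratios scaling moved Rep1 relative to Rep2, removing a log2 offset of -1.19, and those shares were then 33.8% and 23.7%, with 7 members in Rep2 and 1 in Rep1. With Rep1 scaled to nerve markers, as described further on, the shares of all genes were 22.8% in Rep2 and 37.5% in Rep1. With that scaling, 1 member was at least 2-fold higher in Rep2 and 1 in Rep1. The members' median was then -0.14, and *CTSC*, *CTSD* and *CTSH* were higher in Rep1. The median difference of the members (Rep1 minus Rep2) was -2.59, beside -1.07 for all genes. The member higher in Rep1 was *CTSA*, at 1.11, which became 0.94, just under 2-fold, with the 10 most abundant genes left out. With 2 libraries of 1 condition these differences are a measure of spread and have no test.

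Of the members above 0 in both libraries and higher in Rep2 as deposited, the 7 cathepsins were 3.66-fold to 7.59-fold higher in Rep2, with a median of 5.95-fold. *CTSC* had the lowest value and *CTSF* the highest, close to the 7.55-fold of *CTSL*. *CST3* was above this range at 10.7-fold. The difference of *CTSZ*, -3.57 on the log2(TPM + 1) scale, sets a listed 0 against 10.9 TPM and depends on the pseudocount.

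**Figure D2:**
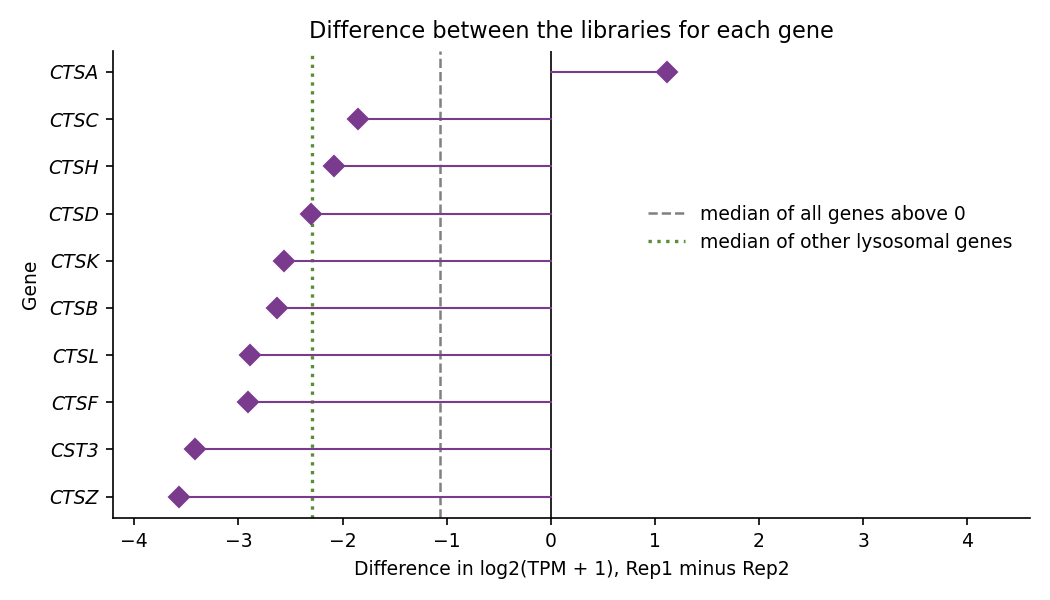
Difference between Rep1 and Rep2 in log2(TPM + 1) for each gene (diamonds, with lines to 0), with the median of all genes with any TPM as a dashed line and the median of the other lysosomal genes as a dotted line. *CTSA* lies at 1.11, and the other 9 genes lie between -3.57 and -1.85, below the median of all genes at -1.07.

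Ratios of members within a library do not depend on the scaling of that library. *CST3* made up 48.1% of the summed TPM of the 10 genes in Rep1 and 74.6% in Rep2, and *CTSA* made up 24.2% and 1.62%. With *CTSA* left out, the share of *CST3* was 63.4% in Rep1 and 75.8% in Rep2. The transcript of the inhibitor exceeded the sum of its 7 target proteases in both libraries, with 2.12 times their summed TPM in Rep1 and 3.69 times in Rep2 (2.90 ± 1.11, SD, n = 2). The sum of these proteases itself was 456 TPM in Rep1 and 2788 in Rep2.

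Some ratios between proteases were alike in the libraries and others were not. *CTSC* was above *CTSL*, and *CTSD* above *CTSF*, in Rep1 only. *CTSF* stood at 1.45 times *CTSL* in both, which in Rep1 rested on at least 20 reads of *CTSF* and 47 of *CTSL*. *CTSB* stood at 3.35 times *CTSL* in Rep1 and 2.75 times in Rep2, *CTSK* at 2.21 and 1.74 times *CTSL*, and *CTSD* at 0.632 and 0.506 times *CTSB*. *CTSA* departed from them, with 3.06 times *CTSB* in Rep1 and 0.227 times in Rep2. It departed in the same way from the enzymes that it shields, standing at 12.2 times *GLB1*, which encodes β-galactosidase, in Rep1 and 1.30 times in Rep2, and at 143 and 14.3 times *NEU1*, which encodes neuraminidase. Of the 1143 genes within 2-fold of *CTSA* in Rep2, 21.6% were higher in Rep1 and 13.9% at least 2-fold higher.

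**Figure D3:**
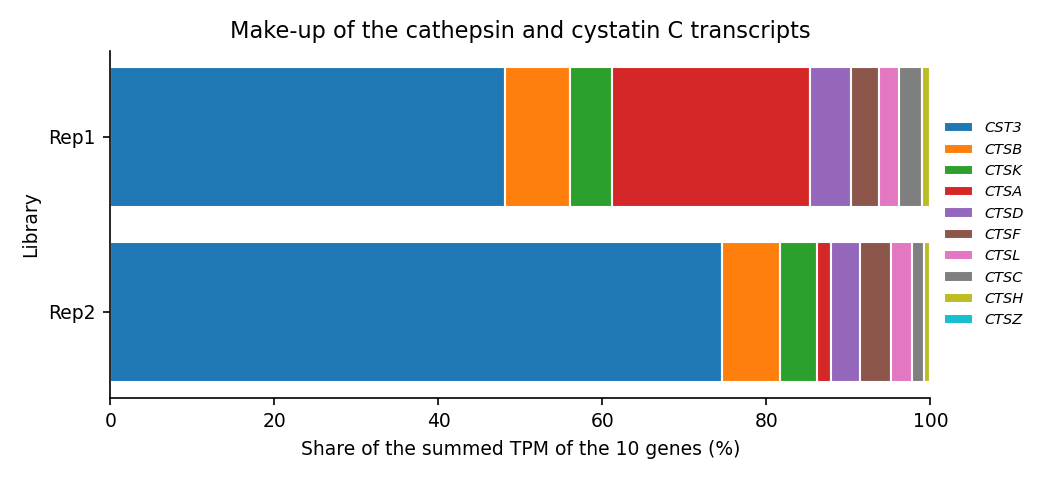
Share of the summed TPM of the 10 genes taken by each gene (stacked bars, percent) in Rep1 and Rep2. *CST3* takes 48.1% in Rep1 and 74.6% in Rep2, and *CTSA* takes 24.2% in Rep1 and 1.62% in Rep2.

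The cathepsins and cystatins outside the 10 members were mostly low. *CTSO* stood at 5.68 TPM in Rep1 and 33.1 in Rep2, and *CTSS*, which is known from microglia and antigen-presenting cells, at 1.39 and 36.3 TPM. *CTSW* and *CTSV* were listed at 0 in Rep1 and reached 0.892 and 0.710 TPM in Rep2, and *CTSE* and *CTSG* were listed at 0 in both libraries. The median difference of the 4 above 0 was -1.64, and 2 of them were at least 2-fold higher in Rep2. Over all genes with any TPM this share was 51.3%. Of the other cystatins, *CSTB*, an inhibitor inside cells, stood at 15.3 and 198 TPM, *CST6* at 18.2 and 25.3 TPM, and *CSTL1* was listed at 0 in Rep1 and reached 0.226 TPM in Rep2. The 4 cystatins above 0 had a median difference of -0.37, with 1 at least 2-fold higher in Rep2. These medians rest on genes near 0 and moved with the setting. With a pseudocount of 0.1 they were -3.16 for the cathepsins and -1.61 for the cystatins, and with genes averaging under 1 TPM left out they were -3.16 and -2.03.

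The soluble enzymes that work beside the cathepsins differed between the libraries in the same direction. Of 34 lysosomal hydrolases, 34 were lower in Rep1 and 32 at least 2-fold lower, with a median difference of -2.66, which was -0.35 with Rep1 scaled to nerve markers. Of all genes with any TPM, 75.9% were lower in Rep1 and 51.3% at least 2-fold lower. The most abundant were *LGMN*, which encodes legumain, a protease that activates cathepsins, at 44.8 TPM in Rep1 and 376 in Rep2, *PPT1*, a thioesterase, at 55.8 and 363 TPM, and *ASAH1*, an acid ceramidase, at 86.0 and 331 TPM. Of 18 activators and membrane proteins of the lysosome, 16 were at least 2-fold lower in Rep1, with a median of -2.76. *LAPTM4A* stood at 816 and 729 TPM, *CD63* at 192 and 1326 TPM and *PSAP*, the precursor of the saposins, at 164 and 716 TPM. The genes called other lysosomal genes here were pooled from all lists but the cell type markers. They thus include the other cystatins and the transcription factors described below, which are not lysosomal enzymes. Over 86 other lysosomal genes above 0, 66 were at least 2-fold higher in Rep2 and the median was -2.29, beside -2.59 for the members. By mean TPM, 7 members were in the first 20 places of the 100 genes formed by these and the members, whereas *CTSC* held place 27, *CTSH* 48 and *CTSZ* 89. In the libraries taken singly, *CTSL* held place 27 in Rep1 and 12 in Rep2, and *CTSA* place 4 in Rep1 and 22 in Rep2.

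The genes that acidify lysosomes, sort their enzymes and control their expression were less uniform. Of 15 subunits of the proton pump, 10 were at least 2-fold higher in Rep2 and 2 in Rep1. Over all genes with any TPM these shares were 51.3% and 14.8%. The median of the subunits was -2.04, which turned positive when Rep1 was scaled to nerve markers, as described further on. *ATP6V0B* stood at 1391 TPM in Rep1 and 200 in Rep2, *ATP6V1G1* at 117 and 298 TPM and *ATP6AP2* at 61.4 and 319 TPM. *ATP6V0B* and *ATP6V1H*, at 272 and 101 TPM, were thus higher in Rep1, as *CTSA* was. Of 7 sorting genes, 5 were at least 2-fold higher in Rep2, with a median of -2.15 that turned positive likewise, among them *SORT1*, which encodes sortilin, at 49.1 and 221 TPM and *GNPTG*, a subunit of the enzyme that makes the mannose 6-phosphate tag, at 12.4 and 127 TPM. *M6PR*, a mannose 6-phosphate receptor, stood at 75.0 and 80.7 TPM.

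The transcription factors of the MiT/TFE family, which are known to switch on lysosomal genes, were mostly not lower in Rep1. *TFEB* stood at 53.1 TPM in Rep1 and 31.4 in Rep2, and *MITF* at 25.3 and 27.5 TPM. *TFE3* stood at 22.4 and 17.3 TPM, on at least 4 and 53 reads, and *TFEC* at 1.59 and 0.138 TPM, on at least 2 and 3 reads. Their median difference was 0.55, and 1 of 4 (*TFEC*) was at least 2-fold higher in Rep1, beside 14.8% of all genes with any TPM. The median was 1.56 with median-of-ratios scaling and 2.94 with Rep1 scaled to nerve markers.

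**Figure D4:**
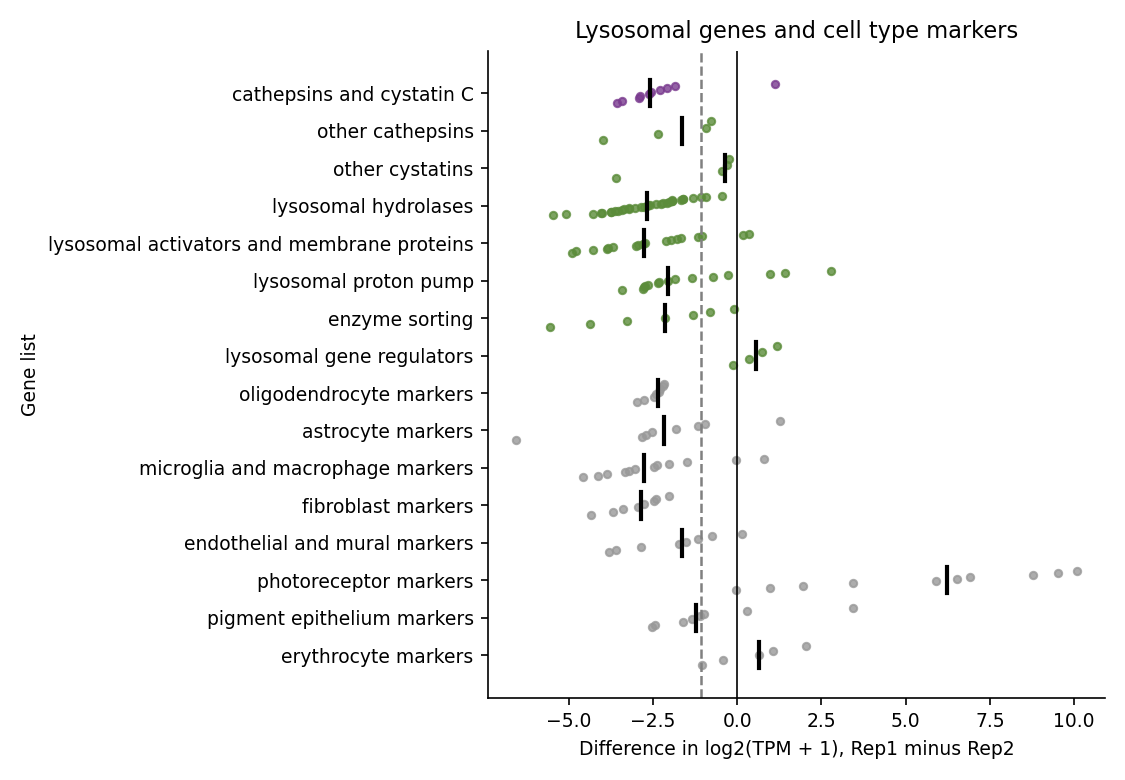
Difference between Rep1 and Rep2 in log2(TPM + 1) for every gene above 0 of each list (points), with the median of the list as a black bar and the median of all genes as a dashed line. The cathepsins and cystatin C, with a median of -2.59, lie near the lysosomal hydrolases at -2.66, and the oligodendrocyte, microglia and macrophage, and fibroblast markers lie at -2.36, -2.76 and -2.84, whereas the photoreceptor markers have a median of 6.22.

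Most markers of the cell types of the nerve were, like the members, lower in Rep1. Higher in Rep2 were 8 of 8 oligodendrocyte markers (median difference -2.36), 7 of 8 astrocyte markers (-2.17), 11 of 12 markers of microglia and macrophages (-2.76), 8 of 8 fibroblast markers (-2.84) and 7 of 8 endothelial and mural markers (-1.63). Higher in Rep1 were 9 of 10 photoreceptor markers (6.22). Over all genes with any TPM, 75.9% were higher in Rep2 and 24.1% in Rep1, so a count of 7 of 8 is near the share of all genes. The microglia and macrophage markers summed to 265 TPM in Rep1 and 735 in Rep2. Of these, *TMEM119*, *ITGAM* and *CD163* were listed at 0 in Rep1, *C1QB* stood at 30.3 and 173 TPM, and *AIF1* was higher in Rep1 with 113 and 64.5 TPM. The fibroblast markers summed to 1773 and 16029 TPM, with *DCN* at 995 and 10504 TPM and *COL1A2* at 320 and 2440 TPM. Astrocyte markers summed to 1148 and 7342 TPM, with *GFAP* at 658 and 4331 TPM and *S100B* at 323 and 2299 TPM. The endothelial and mural list was led by *RGS5* at 47.7 and 160 TPM and *PDGFRB* at 4.16 and 61.3 TPM.

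Rep1 was also multiplied by 5.53, the factor that cancelled the median ratio of Rep1 to Rep2 in a list of 32 markers. These were the markers of oligodendrocytes, astrocytes, fibroblasts, endothelial and mural cells. The median left out 1 endothelial and mural marker, which was listed at 0 in Rep1 and gave no ratio. With this scaling the median difference of the members was -0.14. *CST3* was then at -0.95 and *CTSA* at 3.58. Of all genes with any TPM, 37.5% were at least 2-fold higher in Rep1 and 22.8% in Rep2, with a median of 0.14. Among the members, 4 were higher in Rep1 and 6 in Rep2. *CTSC* at 0.59, *CTSD* at 0.16 and *CTSH* at 0.33 thus changed direction, as did the medians of the proton pump and of the sorting genes, both at 0.30. This scaling was chosen after the data had been seen. The pigment epithelium markers had a median of -1.22, with *RLBP1* at 76.7 TPM in Rep1 and 6.12 in Rep2 and *TTR* at 18.6 and 59.0 TPM, and the erythrocyte markers one of 0.66, with *HBB* at 4515 and 1087 TPM and *ALAS2* at 21.9 and 9.84 TPM. The part of these cell types in the levels of the members was not tested.

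The promoters were searched for the E-box CACGTG and its longer form TCACGTGA, both of which read the same on either strand, because the factors named above bind to such sites. In the window from 250 bases before to 50 bases after the outermost start of each gene, CACGTG was present in 2 of 10 members (*CTSB* and *CTSF*), in 21 of 90 other lysosomal genes (23.3%) and in 7.72% of 20769 protein-coding genes. TCACGTGA was present in 0 of 10 members, in 12 of 90 other lysosomal genes (13.3%) and in 1.07% of all. Every TCACGTGA contains a CACGTG, so the counts overlap. The still longer CLEAR element, which contains both, was present in 0 of 10 members, in 9 of 90 other lysosomal genes and in 0.400% of all.

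The outermost start is not the only one annotated for some members. When every annotated start was searched, together with the exon that holds the start codon of *CTSD*, windows of *CTSA*, *CTSB*, *CTSD* and *CTSF* held CACGTG, whereas those of *CTSC*, *CTSH*, *CTSK*, *CTSL*, *CTSZ* and *CST3* did not. This wider search covered the members only, so no share over all genes stands beside it. The windows below are 30 bases of Mmul_10 on the strand of the gene, 5′ to 3′, with the motif in capitals, and are shown as the sites nearest before a start.
CTSF, chr14:7979329-7979358, plus strand: ccccgcgcgcccCACGTGcctcctgtaaac
CTSD, chr14:1842524-1842553, minus strand: gccagcctcgccCACGTGaccagcccgggt
CTSA, chr10:81073256-81073285, plus strand: ggatcatctgatCACGTGcgcccgggctac
CTSA, chr10:81073354-81073383, plus strand: agaaggggcgggaggaagactgtCACGTGg
The motif began 56 bases before the start of *CTSF* and 104 bases before the coding exon of *CTSD*. In *CTSA* it began 75 bases before the start of the curated transcript in the first window and 7 bases before the start of a predicted one in the second. A further CACGTG of *CTSA*, which began 10 bases after the start of that predicted transcript, was part of a TCACGTGA. Such matches are descriptions of the sequence, and their part in the levels of the members was not tested.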

How the data were processed

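Optic nerve RNA of untreated macaques was sequenced in 2 libraries prepared with an ultra-low-input kit that amplifies cDNA. The submitters' processing notes name FastQC 0.11.9, Trim Galore 0.6.6, STAR 2.7.1a and featureCounts 1.5.3, and the methods name Mmul_10 as the genome. The authors computed TPM from the counts in R. The deposited table lists 16684 genes with a TPM column for Rep1 and for Rep2, which nothing pairs with the sample titles. TPM gives no depth, interval or detection limit per gene. Relative depth and smallest read numbers, which are lower bounds, came from the ratios of the values of a gene (tolerance 1e-11), and 99.9% of 10168 genes gave whole reads.

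Libraries were compared as log2(TPM + 1), and the pseudocount makes differences of low genes too small. Python 3.11, numpy 2.4.6, pandas 2.3.3 and matplotlib 3.10.9 were used, and the methods were tested on simulated data. Coordinates and sequences came from the RefSeq annotation and genome of Mmul_10, which held all 16684 symbols. No condition was compared and no p-value computed.

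The members and lists were chosen with earlier results of these data known. All members were named, the 3 most abundant genes of each lysosomal list, 2 of each marker list (1 gene is not reported here), and regulators and other cathepsins in full. *ATP6V1H*, *TMEM119*, *ITGAM* and *CD163* were added after their values had been seen, as were the partners *GLB1* and *NEU1* and the overlapping *PLTP*, *NEURL2* and *MYH11*. The gene nearest to each member was the one at the smallest Euclidean distance. Alternatives were a pseudocount of 0.1, median-of-ratios scaling, the table without its 10 most abundant genes, a mean of at least 1 TPM, the geometric mean, 500 nearest genes, the SD about the mean difference, and each library alone.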

Additional observations from a re-analysis of the deposited data

How the results depend on the processing

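No paired analysis was possible because there was a single condition. Of 191 values under alternatives for 43 results, 165 kept their direction and moved by less than the spread (for counts, by at most 1.5 times), 21 moved further and 5 reversed. With 2 libraries, each single library and the geometric mean always lie closer to the mean than the SD. For mean levels, the summed TPM and the share of *CST3*, these alternatives could therefore only be counted as kept. They do not show that the values are stable. The summed TPM of the members ran from 2004 to 13796 and the share of *CST3* from 48.1% to 74.6% between single libraries. With the 10 most abundant genes left out, the number of members at least 2-fold higher in Rep1 was 0, beside 13.9% of all genes. *CTSA* fell to 0.94 on the log2 scale. With a pseudocount of 0.1 the median difference was -3.16 for other cathepsins and -1.61 for other cystatins, and with a mean of at least 1 TPM it was -3.16 and -2.03, since the first weighs listed zeros more and the second drops low genes. Median-of-ratios scaling gave 1.56 for the regulators. Rep1 was also multiplied to match the nerve markers of Rep2, a setting chosen after seeing the data. The median was then -0.14 for the members, of which 1 was at least 2-fold higher in Rep2, beside 22.8% of all genes. It was -0.35 for hydrolases, -0.42 for activators and membrane proteins, 0.30 for the proton pump, 0.30 for sorting genes and 2.94 for the regulators, while *CTSC* moved to 0.59, *CTSD* to 0.16 and *CTSH* to 0.33. *CTSA* was higher in Rep1 under each scaling. In Rep1, *CTSZ* was listed at 0 and *CTSH* rested on at least 5 reads, the lowest of the members, so their levels in that library are the least certain.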

Other observations

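For each member, the gene closest to it in log2(TPM + 1) of both libraries was looked up, over 2 libraries only, so the likeness is a description of level. *CST3* was closest to *DCN*, which encodes the proteoglycan decorin, at 995 TPM in Rep1 and 10504 in Rep2, with a distance of 0.0550. *CTSA* was closest to *CHMP2A* (468 and 237 TPM, distance 0.0983) and *CTSB* to *CLDND1* (166 and 969 TPM, distance 0.0713). *CTSK* was closest to *PRDX5*, which encodes a peroxiredoxin (109 and 623 TPM, distance 0.0662). *CTSD* was closest to *RAMP1*, *CTSF* to *GSTM5*, *CTSL* to *ARL2*, *CTSC* to *WBP11*, *CTSH* to *CD47* and *CTSZ* to *ZNF696*, at distances of 0.00314 to 0.0617.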
